A study of Mus musculus with 12 samples.

Results

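The livers of male mice that lack the transcription factor ATF7 were compared with wild-type (WT) livers when both genotypes had been conceived by in vitro fertilization (IVF). The comparison took the 3 arrays of the group Atf7KO_IVF minus the 3 arrays of WT_IVF, so 6 of the 12 arrays of the series, over all 34760 probe sets of the deposited table. It asks how alike the genotypes were after IVF. The other 6 arrays, Atf7-/- and WT livers of mice conceived by natural mating, gave the reference for the genotype difference without IVF. None of them entered the group means of the IVF comparison. All 12 arrays were fitted together with a shared spread, however. The naturally conceived livers therefore also bear on the standard error (SE), p-value and interval of each IVF difference.

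All mice carried the C57BL6/JJmsSlc background, and Atf7-/- mice lacked Atf7 in every cell from conception on. For IVF, eggs were fertilized in HTF medium, a defined culture medium, and embryos at the 2-cell stage were moved into pseudopregnant ICR females, so the IVF pups of both genotypes were carried by recipients of another strain. Naturally conceived pups were born to their own mothers. Each liver of a group came from a different recipient or mother, so the 3 replicates are separate animals. The labels give an age of 4 weeks, and the methods of the study give a younger one. Whole liver RNA was read on Affymetrix Mouse Gene 1.0 ST arrays, 1 per mouse, and values are log2 levels after robust multiarray averaging (RMA). In whole liver, fewer cells of a type and less RNA per cell cannot be told apart.

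ATF7 belongs to the ATF2 subfamily of basic leucine zipper factors, which bind cyclic AMP response elements (CRE) in promoters. Bound to a promoter, it keeps the gene off with the help of ESET and G9a, enzymes that place repressive methyl marks on lysine 9 of histone H3. Stress kinases such as p38 phosphorylate it, after which it leaves its targets and they become active. The liver holds cholesterol, fatty acid, bile acid and purine metabolism under tight transcriptional control, and hepatocytes make most of the plasma proteins.

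The labelled tissue and sex were borne out. Across the 12 arrays the hepatocyte transcripts Alb, Apoa1 and Ttr lay at or above percentile 99.9 of all probe sets. The Y-linked genes Kdm5d, Uty and Eif2s3y lay between percentiles 69.6 and 91, and Xist, which female cells express, lay between 12 and 20.9. Array medians ran from 6.22 to 6.31 in the IVF livers and from 6.26 to 6.34 in the others.

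After IVF, 2 of 34760 probe sets (0.00575%) differed between Atf7-/- and WT livers, both lower in Atf7-/-, and none higher. One read Atf7 itself and the other read Ifi202b, a member of the interferon-inducible Ifi200 family of DNA-sensing and growth-regulating proteins. A probe set was called at a limma adjusted p of at most 0.05 (Benjamini-Hochberg, over all probe sets) and an absolute log2 difference of at least 0.6. At an unadjusted p under 0.05, 1110 probe sets were higher (3.19%) and 1016 lower (2.92%). Both calls drew on the spread shared by all 12 arrays. In a fit of the 6 IVF arrays alone neither passed, with limma adjusted p = 0.0724 for Atf7 and 0.0522 for Ifi202b.

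The Atf7 transcript checks the genotype. Its probe set 10433032 read 5.34, 5.68 and 5.52 in the Atf7-/- IVF livers against 8.18, 8.38 and 7.56 in the WT IVF livers. The groups lay far apart, and the mean difference was -2.53 (SE 0.19, n = 3 per group, limma adjusted p = 0.000752), or 5.76-fold lower with a 95% interval of 4.3 to 7.7. In the naturally conceived livers the difference was -2.82 (SE 0.19, limma adjusted p = 1.93e-05). The second Atf7 probe set, 10433034, read 8.41, 8.43 and 8.28 against 8.70, 8.88 and 8.71. Its groups did not overlap either, but the difference of -0.39 (SE 0.11, limma adjusted p = 0.721) did not pass. Which exons either probe set reads was not analysed here, and a probe set outside the deleted part need not fall.

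Ifi202b was the other gene called lower in Atf7-/- than in WT livers after IVF. Probe set 10360398 read 3.07, 3.20 and 2.66 in the Atf7-/- IVF livers and 5.36, 5.24 and 5.18 in the WT IVF livers. The difference was -2.29 (SE 0.16, n = 3 per group, limma adjusted p = 0.000752), 4.88-fold lower on the RMA scale with a 95% interval of 3.8 to 6.28. In naturally conceived livers the levels were 3.11, 2.78 and 3.28 in Atf7-/- and 2.81, 3.14 and 3.16 in WT, a difference of 0.02 (limma adjusted p = 0.956). The WT IVF livers therefore stood apart from all 9 others, and the genotype difference itself differed between IVF and natural mating by -2.31 (SE 0.23, limma adjusted p = 0.000493). The WT IVF mean lay at percentile 30.6 of all probe sets and the Atf7-/- IVF mean at percentile 5.1, among the lowest values on the array. Whether levels this low lie above background was not analysed here, and where they do not, the fold is only a lower bound. Ifi202b levels are known to vary between inbred mouse strains, and its family has closely similar copies, so a probe set of this family may also read a copy.

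The stretch before the transcription start of Ifi202b is shown because it is the promoter of the only gene besides Atf7 that differed. It covers 250 bases upstream of the start, chr1:173982845-173983094 on the minus strand (RefSeq, GRCm38.p6), with a TTCNNNGAA sequence in capitals, the pattern that STAT factors bind.
Ifi202b: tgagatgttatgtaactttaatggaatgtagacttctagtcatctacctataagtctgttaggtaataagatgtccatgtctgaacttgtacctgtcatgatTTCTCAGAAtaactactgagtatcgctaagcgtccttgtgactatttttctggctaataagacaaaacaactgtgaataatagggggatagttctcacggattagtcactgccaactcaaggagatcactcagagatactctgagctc
On either strand the pattern TTCNNNGAA occurs in 7.02% of 32851 RefSeq windows of this length. The full CRE, TGACGTCA, occurs in 1.55% of them and is not in this window. A match is a description of letters and not a bound site.

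None of the genes beside Ifi202b on chromosome 1, its relatives among them, was called. Within 500 kb, 24 other genes were measured, 0 of them were called and 15 had a 95% interval within 0.6 either way, with a median difference of 0.07. Of all 19937 genes (1 probe set a gene), 0.00502% were called and 91% had such an interval. A lack of calls among so few genes therefore says little. Ifi203 read 8.94, 9.01 and 9.31 in Atf7-/- IVF against 8.53, 8.58 and 8.56 in WT IVF, a difference of 0.53 (SE 0.16, limma adjusted p = 0.721). Ifi207 gave 0.48 (SE 0.14, limma adjusted p = 0.711) and Ifi206 0.50 (SE 0.20, limma adjusted p = 0.783). These values point the other way from Ifi202b, though none passed. Ifi208 at -0.04 and the DNA sensor Aim2 at 0.02 had intervals of -0.48 to 0.40 and of -0.36 to 0.40. Around Atf7, 37 genes were measured within 500 kb, 0 were called and 32 had an interval within 0.6.

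Of 36 interferon-stimulated genes measured, 1 was called (Ifi202b), 15 had an interval within 0.6 (91% of all genes did), and the median difference was -0.13, against -0.000867 over all 19937 genes (1 probe set a gene, 1 called, 0.00502%). The antiviral genes Ifit1 (-0.28, SE 0.16), Mx1 (-0.10, SE 0.16) and Oas1a (-0.25, SE 0.22) did not pass, nor did the regulator Irf7 (-0.18, SE 0.16). The mean of the 36 genes, Ifi202b included, was 7.63 to 7.65 in the Atf7-/- IVF arrays and 7.80 to 7.82 in the WT IVF arrays, a difference of -0.17. Within the naturally conceived groups the same mean varied more, from 7.58 to 8.49 in WT and from 7.69 to 7.90 in Atf7-/-. Without Ifi202b, an alternative chosen after seeing the data, the mean of the other 35 genes was 7.76 to 7.79 and 7.87 to 7.89, a difference of -0.11.

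**Figure D1:**
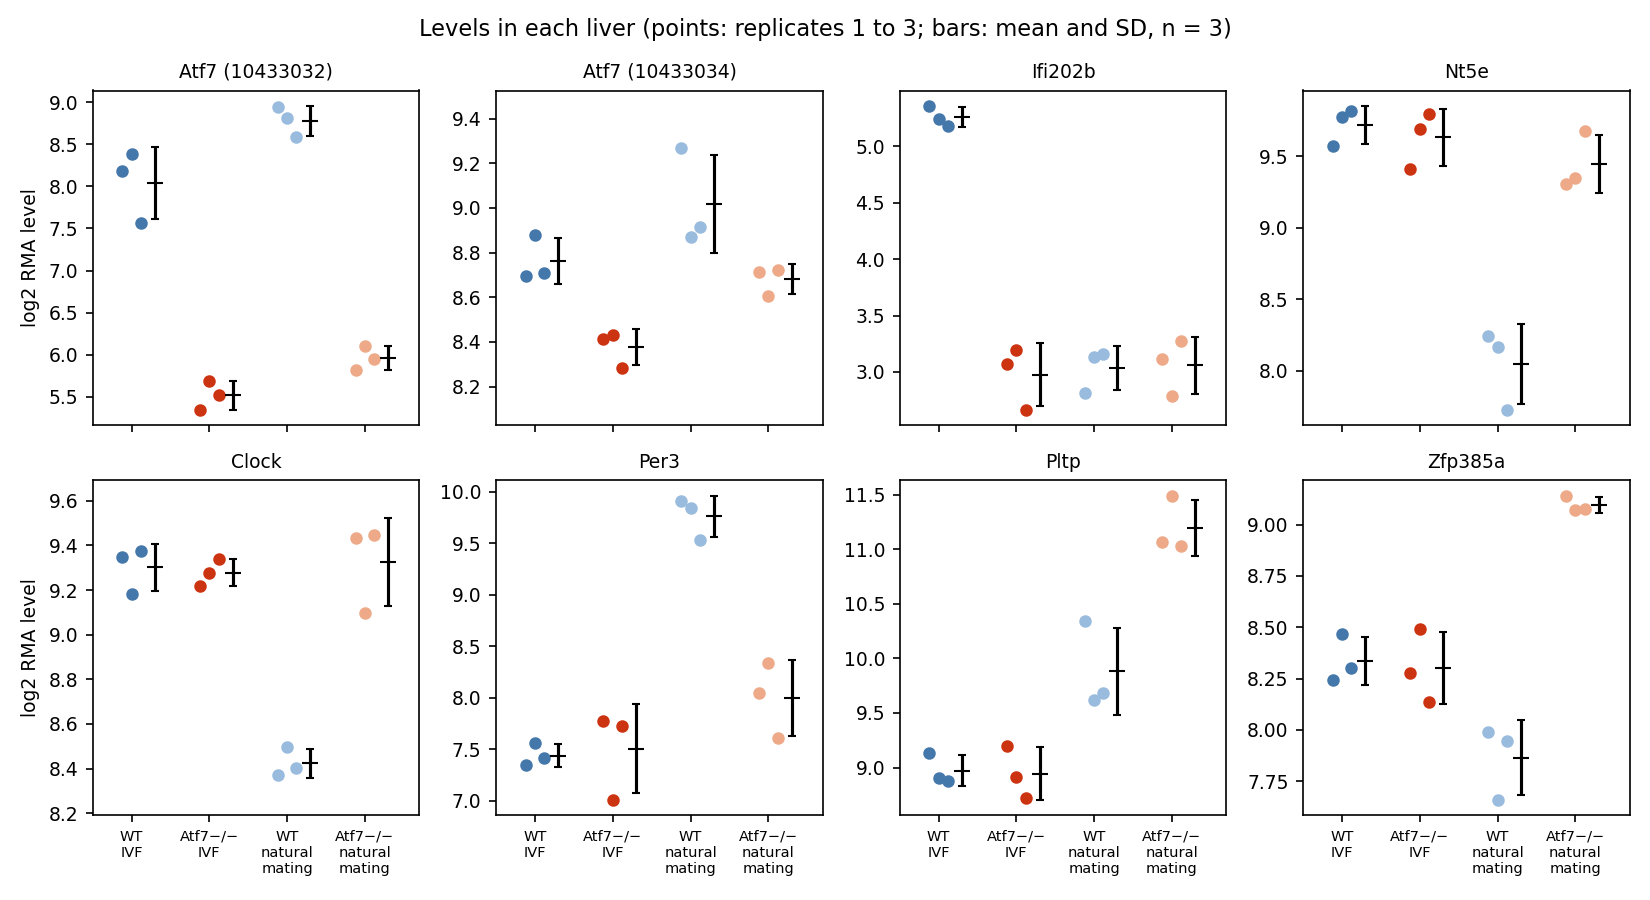
Log2 RMA level (y axis) of 8 probe sets in each liver, by group (x axis), with replicates 1 to 3 as points in that order and the mean and SD (n = 3) beside them. For Atf7 (10433032) both Atf7-/- groups lie below both WT groups, for Ifi202b the WT IVF livers alone are high, and for Nt5e, Clock, Per3, Pltp and Zfp385a the IVF genotypes overlap while the naturally conceived ones do not.

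The genotypes were then compared for likeness, which is not the same as the lack of a call. A probe set was counted as alike when the whole 95% interval of its difference lay within 0.6 either way, a 1.52-fold change. After IVF, 26656 of 34760 probe sets (76.7%) and 18151 of 19937 genes (91%) met this. Between the naturally conceived genotypes the shares were 62.5% and 75.4%. The fit gives a probe set the same SE in both comparisons (median 0.13), since the spread is pooled and each group has 3 arrays. It therefore does not compare their noise. The median absolute difference was 0.10 after IVF and 0.17 after natural mating, and their SD was 0.22 and 0.40. Differences of at least 1 were seen for 152 probe sets (0.437%) after IVF and for 1112 (3.2%) after natural mating. Groups without overlap were found for 10.9% of probe sets after IVF and for 31.9% after natural mating.

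A further 8102 probe sets (23.3%) were neither called nor alike, so these arrays do not say whether they differ. They were dimmer, with a median level of 5.59 against 6.49 for the alike probe sets, and noisier, with a median SE of 0.26. Of them 68.8% carried no gene symbol, against 23.3% of the alike probe sets.

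Distances between whole profiles showed the same lack of separation. The Euclidean distance over all probe sets was 65.5 to 72.5 between Atf7-/- IVF livers and 62.8 to 67.6 between WT IVF livers. Between the genotypes it was 61.8 to 78 (median 70.3), a range that covers both. For 3 of the 6 IVF arrays, the nearest other IVF array was of the other genotype. The closest pair of IVF livers was Atf7-/- IVF replicate 2 with WT IVF replicate 2. After natural mating, distances between genotypes were 86.3 to 94.2 and did not overlap those within Atf7-/- (56.8 to 61.8) or WT (61.4 to 79.7).

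**Figure D2:**
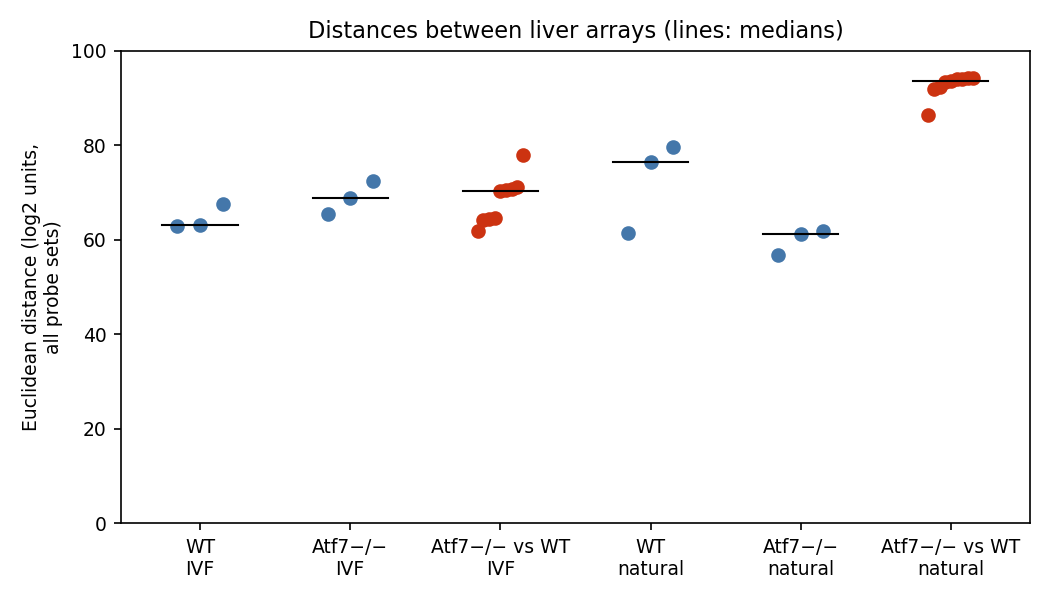
Euclidean distance over all 34760 probe sets (y axis, log2 units) for each pair of livers, within a group (blue) and between the genotypes (red), with black lines at the medians. After IVF the distances between genotypes (61.8 to 78) cover those within them, whereas after natural mating they lie above both (86.3 to 94.2).

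The genes that ATF7 loss moved in naturally conceived livers were followed into the IVF livers, which are independent animals. After natural mating 2606 probe sets were called (7.5%), 1332 higher (3.83%) and 1274 lower (3.67%) in Atf7-/-. With 1 probe set per gene the calls were 860 higher (4.31%) and 379 lower (1.9%). The 1332 had a median difference of 0.83 there and of -0.08 after IVF, where the central 90% ran from -0.46 to 0.22, 0 were called and 984 (73.9%) were alike. The sign was the same after IVF for 28.5% of them. The 1274 had a median of -0.91 there and of 0.05 after IVF, with 1 called (Atf7) and 770 (60.4%) alike. The genotype difference changed between natural mating and IVF (interaction, tested directly) for 2148 probe sets (6.18%), 945 (2.72%) with a higher and 1203 (3.46%) with a lower difference after IVF. When each array was centred on its median first, 30.4% of these calls were higher instead of 44%. Of the 2148, 1522 (70.9%) were alike after IVF. Over all 34760 probe sets 76.7% were alike, a larger share than the 70.9%, 73.9% and 60.4% given here.

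**Figure D3:**
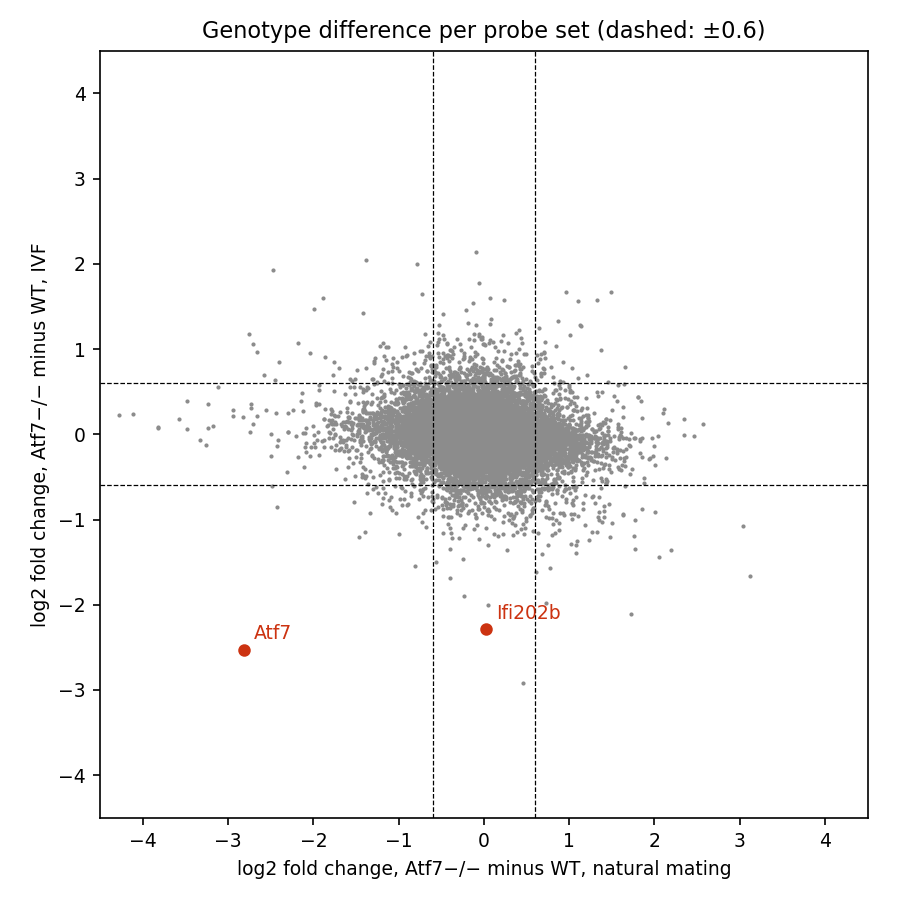
Each point is 1 of 34760 probe sets, with its log2 difference Atf7-/- minus WT after natural mating (x axis) and after IVF (y axis), dashed lines at 0.6 either way. Values reach 4.28 on the x axis and 2.91 on the y axis in size. Atf7 lies low on both axes and Ifi202b low on the y axis alone.

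The genes of the ATF7 pathway are read against the 91% of all genes that were alike, a share that 10 of the 50 lists exceeded. Of 23 measured H3K9 methylation and heterochromatin genes 21 were alike and 0 called, with a median of -0.03. Setdb1, which encodes ESET, read 8.13 ± 0.11 (SD, n = 3) in Atf7-/- IVF and 8.08 ± 0.09 in WT IVF, with an interval of -0.19 to 0.28. Ehmt2, which encodes G9a, had an interval of -0.28 to 0.16 and its partner Ehmt1 one of -0.18 to 0.17. Of 26 ATF, CREB and AP-1 factors 23 were alike. Atf2, the closest relative of Atf7, read 9.12 ± 0.07 and 9.09 ± 0.12 (interval -0.17 to 0.24), and Creb5, the third member of the subfamily, 6.34 ± 0.14 and 6.37 ± 0.10 (interval -0.31 to 0.25). For both, the interval lay below a 1.52-fold rise. Of 20 stress kinase genes 17 were alike, including Mapk14, which encodes p38 alpha (0.04, SE 0.08). The largest values of this list were those of Gadd45g and Dusp1. Dusp1, a phosphatase that switches off p38 and JNK, read 8.26, 8.23 and 8.24 in Atf7-/- IVF and 9.20, 9.39 and 9.50 in WT IVF (-1.12, SE 0.26, limma adjusted p = 0.521). Gadd45g, a stress-induced activator upstream of both kinases, read 6.53, 6.31 and 6.37 against 7.77, 7.45 and 7.65 (-1.22, SE 0.27, limma adjusted p = 0.508). Their groups did not overlap, yet neither passed over the whole array.

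Purine salvage and breakdown was the one list among the 40 of pathways and liver functions with every measured gene alike after IVF, 21 of 21, with differences between -0.16 and 0.18. Over all genes 91% were alike, not far from this in a list so short, and 67 of 69 oxidative phosphorylation genes were. Nt5e, the ecto-5'-nucleotidase that makes adenosine from AMP, read 9.41, 9.69 and 9.79 in Atf7-/- IVF livers and 9.57, 9.77 and 9.82 in WT IVF livers. The levels overlapped and the interval was -0.44 to 0.27. Without IVF they did not overlap, with 9.31, 9.35 and 9.68 in Atf7-/- and 8.24, 8.17 and 7.73 in WT, where Nt5e rose with ATF7 loss by 1.40 (SE 0.16, limma adjusted p = 0.000349). The interaction was -1.49 (limma adjusted p = 0.00424). Of the 12 genes of purine synthesis 11 were alike, among them Ppat, its first committed enzyme (-0.06, SE 0.09).

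Of the clock genes, 3 of the 5 in phase with Arntl and 7 of the 15 in phase with Dbp were alike, against 91% of all genes. Clock, the partner of BMAL1, read 9.22, 9.28 and 9.34 in Atf7-/- IVF and 9.35, 9.18 and 9.38 in WT IVF (interval -0.26 to 0.21), against 9.43, 9.10 and 9.45 and 8.37, 8.50 and 8.40 without IVF. Its interaction was -0.93 (limma adjusted p = 0.00566). Per3, a repressor of that pair, read 7.78, 7.01 and 7.73 against 7.35, 7.56 and 7.41 after IVF, and 8.05, 8.33 and 7.60 against 9.91, 9.84 and 9.53 without it (interaction 1.83, limma adjusted p = 0.00714). Arntl, which encodes BMAL1, lay at 8.36 to 8.53 in Atf7-/- IVF and 8.14 to 8.45 in WT IVF (interval -0.28 to 0.50). Its level also separated the modes of conception, since the 6 naturally conceived livers lay at 5.94 to 7.17. Clock transcripts cycle through the day, and the part of this difference between the arms in the interactions was not tested. Among those not alike, Cry1, a repressor of the clock, gave -0.32 (SE 0.19, interval -0.75 to 0.11). Per1 was lower in all 3 Atf7-/- IVF livers (6.99, 6.79 and 6.73 against 7.40, 7.63 and 7.41) by -0.65 (SE 0.14, limma adjusted p = 0.508), and Bhlhe40, a light- and stress-responsive repressor, by -1.05 (SE 0.27, limma adjusted p = 0.599).

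Imprinted genes, a class often examined after embryo culture, were alike for 24 of 26, a share near the 91% of all genes, with differences from -0.14 to 0.28. Mest, a paternally expressed gene, read 8.07, 7.70 and 8.0 in Atf7-/- IVF and 7.62, 8.42 and 7.62 in WT IVF (interval -0.49 to 0.56), while ATF7 loss had raised it by 1.46 (limma adjusted p = 0.00259) without IVF. The fetal growth factor Igf2 read 7.24 ± 0.25 and 7.07 ± 0.19 (interval -0.15 to 0.49). Peg10, a retrotransposon-derived placental gene, was one of the 2 members not alike (0.28, SE 0.16, interval -0.08 to 0.64), and it had risen by 1.5 (limma adjusted p = 0.000276) without IVF.

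Coagulation genes were alike for 28 of 31 and complement genes for 24 of 27, near the share of all genes, with medians of 0.06 and 0.04. The fibrinogen chain Fga (12.97 ± 0.08 and 12.95 ± 0.12), the factor XIII subunit F13b (interval -0.23 to 0.34) and the lectin Mbl1 (interval -0.43 to 0.41) were alike. Pltp, the phospholipid transfer protein of HDL, read 9.20, 8.91 and 8.72 in Atf7-/- IVF and 9.13, 8.90 and 8.88 in WT IVF, and 11.06, 11.49 and 11.03 against 10.34, 9.62 and 9.68 without IVF (interaction -1.34, limma adjusted p = 0.0192, and 0.0501 and 0.0516 without Atf7-/- IVF replicate 3 and WT IVF replicate 1). Fads2, a desaturase, had an interval of -0.23 to 0.27 and Oplah, an enzyme of the glutathione cycle, one of -0.21 to 0.35. The glutathione S-transferases Gstp1 (interval -0.64 to 0.34) and Gstt2 (interval -0.61 to 0.55) were neither called nor alike.

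Housekeeping complexes were mostly alike, as were 91% of all genes. Among 69 oxidative phosphorylation genes 67 were alike, with differences from -0.21 to 0.18, among 54 ribosomal protein genes 51 were alike and among 52 spliceosome genes 50. After natural mating 14, 16 and 11 genes of these lists had been called lower in Atf7-/- (1.9% of all genes were), and 5 oxidative phosphorylation genes higher, with medians of -0.19, -0.30 and -0.25, and after IVF the medians were -0.01, 0.00272 and -0.06. Many of these genes have near-identical processed copies in the genome that the probes may also read. Of 38 proteasome genes 35 were alike after IVF, with a median of -0.11. There, 35 of the 38 lay below 0, against 10036 of all 19937 genes. Hepatocyte markers were alike for 13 of 14. The share was below the 91% of all genes for markers of Kupffer cells (15 of 20), sinusoidal endothelium (15 of 17) and stellate cells (16 of 20). It was also below it for lymphocytes (18 of 21) and neutrophils (12 of 18), and medians of these 6 lists ran from -0.05 to 0.07. Bile duct markers were alike for 9 of 11 (median 0.13) and red cell precursor markers for 9 of 13 (median -0.06). In each of these lists 0 were called, where 0.00502% of all genes were. The mean of the Kupffer cell list ran from 8.32 to 8.56 in Atf7-/- IVF and from 8.46 to 8.50 in WT IVF.

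Of the genes named for the largest interactions, Vaultrc5 and Atp5l were alike after IVF, and the others, such as Akr1c18 and Sqle, were not. Vaultrc5, a vault RNA, read 9.23, 8.83 and 9.08 in Atf7-/- IVF and 9.15, 9.03 and 9.15 in WT IVF, against 7.42, 7.97 and 7.82 and 10.61, 11.34 and 11.25 without IVF (interaction 3.27, limma adjusted p = 0.000245). Zfp385a, a zinc finger protein, was chosen after its values were seen and had a smaller interaction (-1.27, limma adjusted p = 0.00216). Its interval after IVF was -0.30 to 0.23, where naturally conceived Atf7-/- livers had been higher by 1.23. Akr1c18, a progesterone-degrading reductase, gave the largest interaction in size of all probe sets (-4.79, limma adjusted p = 0.0105) and was not alike: 6.05, 8.94 and 6.51 in Atf7-/- IVF against 8.26, 9.57 and 8.65 in WT IVF (-1.66, SE 0.63, limma adjusted p = 0.783). Fabp5, a fatty acid carrier, read 8.02, 8.90 and 7.75 against 9.96, 9.07 and 9.95 (probe set 10585699, -1.44, SE 0.31, limma adjusted p = 0.508), and naturally conceived Atf7-/- livers had been higher by 2.05 (interaction -3.49, limma adjusted p = 0.00161).

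**Figure D4:**
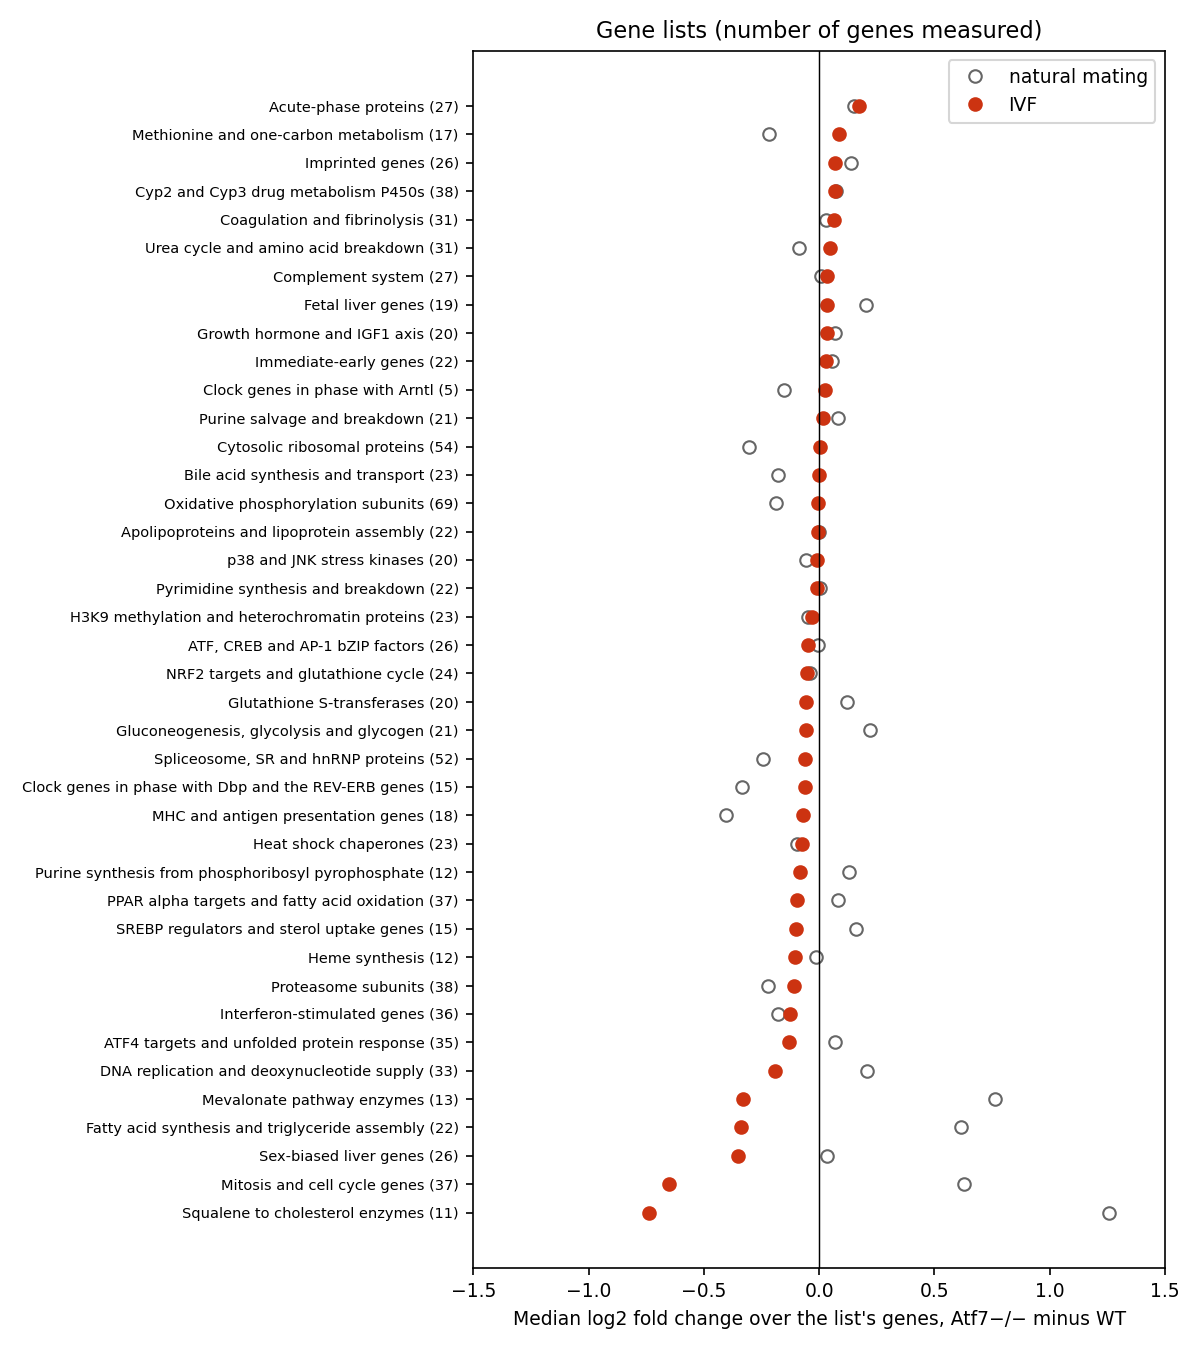
Median log2 difference Atf7-/- minus WT over the genes of each list (x axis), after IVF (filled) and after natural mating (open), for 40 lists of pathways and liver functions (y axis, genes measured in brackets). After IVF the lists lie close to 0, apart from squalene to cholesterol enzymes (-0.74), mitosis (-0.65), sex-biased genes (-0.35), fatty acid synthesis (-0.34) and mevalonate enzymes (-0.33).

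Of the 50 lists, 45 had a median within 0.2 of 0 after IVF, and 5 did not. The enzymes from squalene to cholesterol stood furthest out, and the mevalonate enzymes the least far of the 5. Cholesterol synthesis runs from acetyl-CoA through mevalonate to farnesyl pyrophosphate and from squalene to cholesterol. SREBP2, the product of Srebf2, switches the genes on together when sterols run low. Of the 11 enzymes from squalene to cholesterol 2 were alike and 0 called, and all 11 had values below 0 (median -0.74, against -0.000867 over all genes). The unadjusted p was under 0.05 for 8 of them, all lower, against 2.67% of all genes. Of the 13 mevalonate enzymes 7 were alike and 0 called (median -0.33).

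The enzymes lay lowest in Atf7-/- IVF replicates 1 and 3. Hmgcs1, which makes HMG-CoA, read 9.75, 10.76 and 9.88 in Atf7-/- IVF and 11.13, 10.74 and 11.03 in WT IVF (-0.83, SE 0.26, limma adjusted p = 0.73). Idi1, the isopentenyl diphosphate isomerase, read 8.59, 10.18 and 9.27 against 10.43, 10.03 and 10.58 (probe set 10482762, -1.0, SE 0.39, limma adjusted p = 0.783). Msmo1, a sterol C4 oxidase, read 8.72, 10.01 and 9.12 against 10.49, 10.17 and 10.63 (-1.14, SE 0.30, limma adjusted p = 0.624). In each, replicate 2 of Atf7-/- IVF lay beside the WT livers. Sqle, the squalene epoxidase, gave -2.11 (SE 0.65, limma adjusted p = 0.73) with 6.65, 8.97 and 6.58 against 9.71, 9.13 and 9.68. Averaged over the 11 enzymes the Atf7-/- IVF livers read 8.95, 9.80 and 8.94 and the WT IVF livers 10.12, 9.98 and 10.12.

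The contrast with natural mating was tested and passed for many of them. There, 8 of the 11 and 6 of the 13 enzymes rose with ATF7 loss (4.31% of all genes did), with medians of 1.26 and 0.77, and the interaction was called lower for 8 and 7 (4.23% of all genes). It was -1.88 for Hmgcs1 (limma adjusted p = 0.0135), -2.78 for Idi1 probe set 10482762 (0.0143), but -1.51 for its other probe set 10403413, which did not pass (0.105), -2.41 for Msmo1 (0.0081) and -2.14 and -1.37 for the probe sets of Fdft1, the squalene synthase (0.00116 and 0.00565). Srebf2 itself was alike after IVF (8.60, 8.56 and 8.33 against 8.81, 8.69 and 8.76, interval -0.46 to -0.06), with an interaction of -1.01 (limma adjusted p = 0.00151). Alike here means within 0.6, since its Atf7-/- IVF values all lay below those of WT IVF. The difference of -0.26 did not pass (limma adjusted p = 0.769). Scap, the escort of SREBP proteins, was also alike (-0.05, SE 0.17). Lpin1, a phosphatidate phosphatase and SREBP target, read 8.53, 8.94 and 8.51 against 9.57, 9.40 and 9.72 (-0.91, SE 0.22, limma adjusted p = 0.569).

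The promoter of Hmgcs1 is shown because this gene stands early in the pathway and its interaction passed. The 250 bases before its start, chr13:119690101-119690350 on the plus strand (RefSeq, GRCm38.p6), hold 1 match to TCACNCCAC, a pattern of sterol response elements, in capitals. Here too a match describes letters and is not a bound site.
Hmgcs1: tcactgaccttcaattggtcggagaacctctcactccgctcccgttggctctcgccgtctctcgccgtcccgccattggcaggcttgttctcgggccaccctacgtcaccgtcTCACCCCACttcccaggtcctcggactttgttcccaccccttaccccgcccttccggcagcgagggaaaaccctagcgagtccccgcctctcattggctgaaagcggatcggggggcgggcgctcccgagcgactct
The pattern, on either strand, occurs in 1.05% of 32851 windows of this length. Of 13 mevalonate genes with a window it was in Hmgcs1 alone, and in 0 of 9 genes from squalene to cholesterol. The CRE TGACGTCA was in none of these windows.

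Fatty acid synthesis genes varied widely within the Atf7-/- IVF group. Elovl6, the elongase of palmitate, read 7.67, 11.30 and 7.39 in Atf7-/- IVF and 10.72, 10.79 and 10.79 in WT IVF (-1.98, SE 0.84, limma adjusted p = 0.8). Scd1, the stearoyl-CoA desaturase, read 11.77, 13.28 and 11.75 against 13.28, 12.94 and 13.33 (-0.92, SE 0.32, limma adjusted p = 0.769), and Thrsp, a lipogenic regulator, 7.54, 10.27 and 7.41 against 10.28, 10.50 and 10.45. Replicates 1 and 3 were low and replicate 2 was near the WT level or above it. Of 22 genes 8 were alike, 0 were called, and the median was -0.34, which became -0.67 without replicate 2. Without that array Scd1 was called (-1.43, limma adjusted p = 0.00522). The enzymes of triglyceride assembly Dgat2 (-0.09, SE 0.08) and Agpat2 (0.02, SE 0.10) were alike, as was Mlxipl, the carbohydrate-responsive factor (-0.04, SE 0.16).

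**Figure D5:**
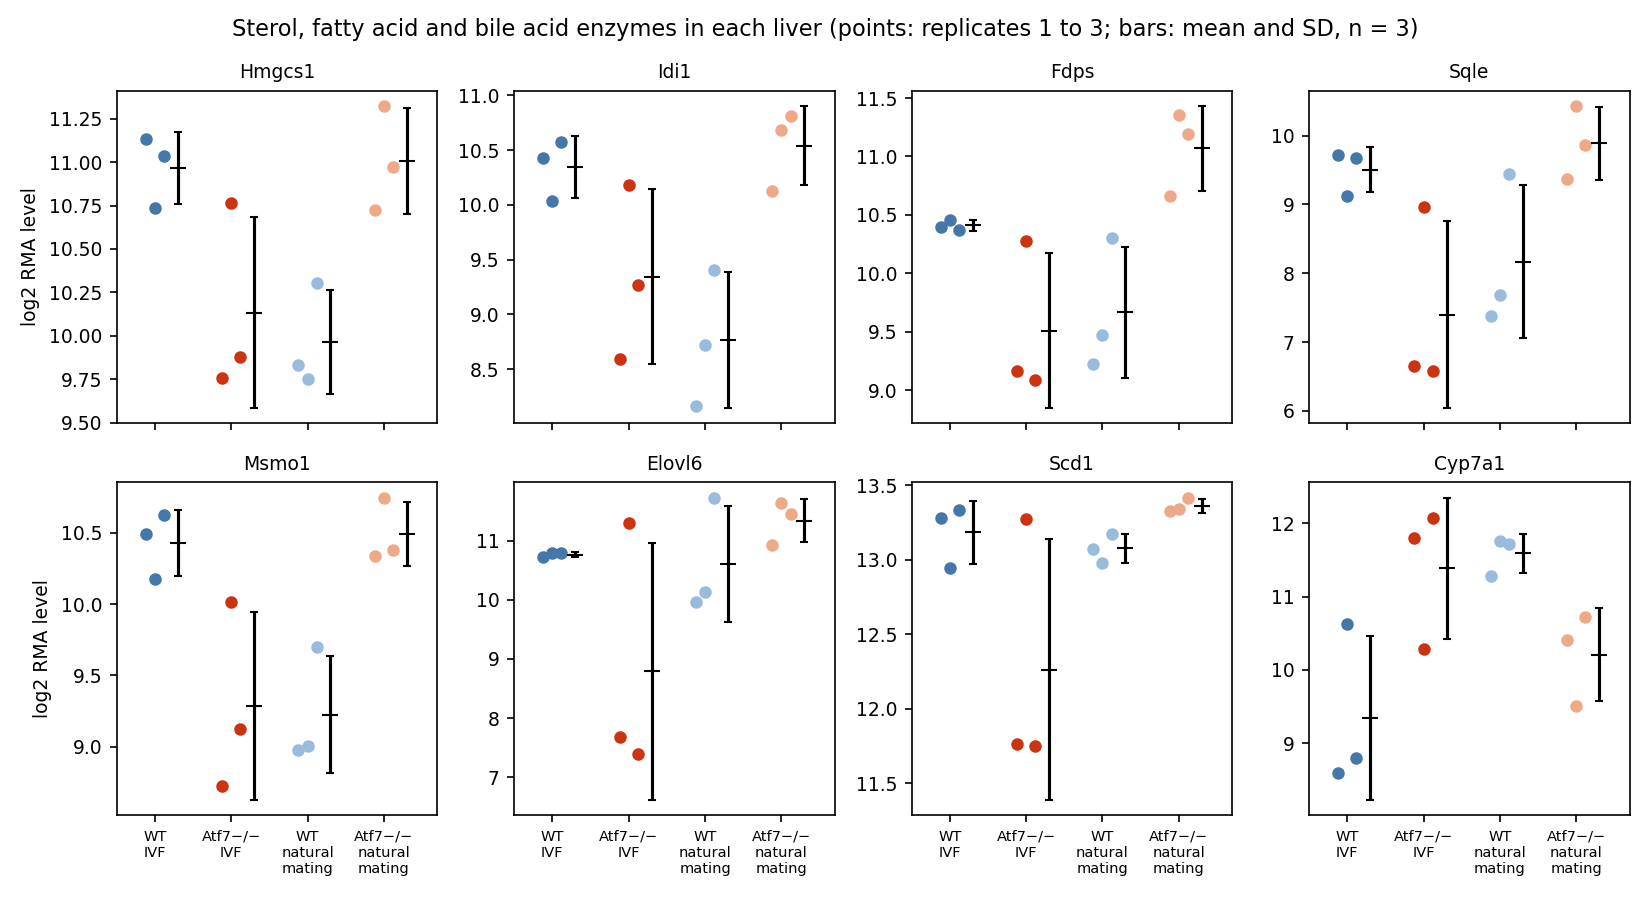
Log2 RMA level (y axis) of 8 enzymes of sterol, fatty acid and bile acid synthesis in each liver, by group (x axis), with replicates 1 to 3 as points in that order and the mean and SD (n = 3) beside them. In Atf7-/- IVF livers replicates 1 and 3 lie apart from replicate 2, which sits near or within the WT IVF range for Hmgcs1, Idi1, Fdps, Sqle, Msmo1 and Scd1 and above it for Elovl6.

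Bile acid synthesis held the largest positive value of any gene. Cyp7a1, its rate-limiting enzyme, read 11.80, 10.29 and 12.08 in Atf7-/- IVF and 8.60, 10.63 and 8.79 in WT IVF (2.05, SE 0.57, limma adjusted p = 0.688). Replicate 2 of each genotype lay in between, so the groups overlapped. The interaction of 3.43 passed (limma adjusted p = 0.0292) but not with the replicate number as a block (0.052), and the call ended when any 1 of 7 arrays was left out (limma adjusted p from 0.0551 to 0.0726), namely Atf7-/- natural mating replicates 1 or 2, Atf7-/- IVF replicates 1 or 3, WT natural mating replicate 2, or WT IVF replicates 1 or 3. Of 23 genes of the list 16 were alike, including the exporter Abcb11 (-0.08, SE 0.09) and Hsd3b7, an enzyme early in the pathway (-0.05, SE 0.16), and Cyp8b1, the sterol 12-alpha hydroxylase, read 0.62 higher (SE 0.23, limma adjusted p = 0.783). The uptake carrier Slco1a1 gave the lowest value of the list (-1.89, SE 0.96, limma adjusted p = 0.82).

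Mitotic genes were not resolved. All 37 had values below 0, with a median of -0.65, but 0 were alike and 0 were called, and their median SE was 0.34. The mean over the list was 6.26, 7.49 and 6.27 in Atf7-/- IVF livers and 7.23, 7.40 and 7.28 in WT IVF livers, so replicates 1 and 3 were low and replicate 2 was the highest of the 6. The median was -0.39 without replicate 1, -0.44 without replicate 3 and -1.01 without replicate 2. Without replicate 2, Rrm2, the small subunit of ribonucleotide reductase, was called (-1.42, limma adjusted p = 0.0411), where all 6 arrays gave -0.81 (SE 0.39, limma adjusted p = 0.81). Mki67, the proliferation antigen, gave -0.94 (SE 0.48) and Cdk1, the mitotic kinase, -0.91 (SE 0.40).

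Sex-biased liver genes were alike for 4 of 26, with 0 called and a median of -0.35. Values ran from -2.91 to 0.63, and 20 of the 26 lay below 0. The direction of the sex bias was not used in this list, so the median does not speak for male-biased genes alone. Hsd3b5, a male-enriched steroid dehydrogenase, had the most negative value of any gene, with 5.38, 6.24 and 4.91 in Atf7-/- IVF and 8.50, 8.52 and 8.26 in WT IVF (-2.91, SE 1.05, limma adjusted p = 0.783). The IVF groups lay apart, while naturally conceived WT livers, which enter the shared SE, ranged from 4.76 to 9.72. Hsd3b1, a steroid dehydrogenase of the same cluster, read 4.45, 4.92 and 4.41 against 6.39, 5.50 and 6.72 (-1.61, SE 0.32, limma adjusted p = 0.508). Mup3, a major urinary protein of males, gave -0.96 (SE 0.28, limma adjusted p = 0.715) and Bcl6, a male-biased repressor, -1.14 (SE 0.36, limma adjusted p = 0.742). The growth hormone effector Igf1 was alike (12.04 ± 0.02 and 12.06 ± 0.02).

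Acute-phase genes were alike for 13 of 27 with a median of 0.17, the highest of any list, and 0 called. Lcn2, an iron-sequestering lipocalin, read 10.66, 7.87 and 10.40 in Atf7-/- IVF against 8.30, 7.75 and 8.17 in WT IVF (1.57, SE 0.73, limma adjusted p = 0.81). Hamp, which encodes hepcidin, varied widely within a group, with 10.85, 4.94 and 10.42 in WT IVF against 10.24, 11.11 and 9.57 (1.57, SE 1.58).

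The predicted gene G530011O06Rik had the smallest p-value of the uncalled probe sets (0.73, SE 0.09, limma adjusted p = 0.115). Among the others of known symbol with small p-values, Scn7a (0.55, SE 0.10), Hnf4g (0.70, SE 0.16) and Ugdh (0.42, SE 0.09), which makes UDP-glucuronic acid, were above WT in all 3 Atf7-/- IVF livers. Sgtb (-0.57, SE 0.11), Plekhf1 (-0.76, SE 0.16), Ces4a (-0.94, SE 0.20) and the chemokine Ccl19 (-0.72, SE 0.15) were below it in all 3. The limma adjusted p of these 7 genes ran from 0.398 to 0.52. Ugdh read 9.91, 10.01 and 10.07 in Atf7-/- IVF against 9.51, 9.66 and 9.57 in WT IVF. None of these genes is called different, and none is shown to be alike.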

How the data were processed

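Per the labels and the methods of the study, total liver RNA was hybridised to 12 arrays, 3 per group, and the authors deposited log2 values per probe set, normalized with RMA in the R package affy. Software versions are not stated, and the build was not given in the sources used here. The number of arrays limits the precision.

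The values were fitted as deposited with limma 3.58.1 in R 4.3.3 (a mean per group over all 12 arrays, empirical Bayes). Likeness used the 95% interval. Of 34760 probe sets 21640 carry 1 symbol, 1321 several and 11799 none in the platform annotation, and 21553 matched the RefSeq table of GRCm38.p6, with 0 symbols changed. Lists used the brightest probe set of each of 19937 genes. Simulated data with known differences were used to test the limma script.

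Named were the genes the article names, regulators, the largest calls and interactions (without predicted genes, receptors and small RNAs other than Vaultrc5) and called list members. The other genes named, including those around Ifi202b, were chosen after their values were seen, and the comparison and the lists were chosen with earlier results of these data known. Some genes of the lists are not reported here. Alternatives were other fits, normalizations, filters and thresholds, and fits without each single array. Figures were drawn with matplotlib 3.10.9 in Python 3.11.15.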

Additional observations from a re-analysis of the deposited data

Results flagged for a closer look

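The genotype difference after IVF differed from that after natural mating by the limma interaction test for 945 probe sets in the higher and 1203 in the lower direction (adjusted p at most 0.05, absolute log2 difference at least 0.6). Of the probe sets followed through the alternative settings, 33 were of this kind. The difference (log2, IVF minus natural mating) was higher after IVF for Akr1c19 (2.15), Atp5g2 (1.51), Atp5l (2.03), Cyp7a1 (3.43), Ifi206 (1.45), Per2 (0.91), Per3 (1.83), Slc15a2 (2.22) and Vaultrc5 (3.27). It was lower after IVF for Akr1c18 (-4.79), Clock (-0.93), Cyp51 (-2.68), Fabp5 10490838 (-3.55), Fabp5 10585699 (-3.49), Fdft1 10412909 (-2.14), Fdft1 10420730 (-1.37), Fdps (-2.30), Hmgcs1 (-1.88), Hsd3b1 (-2.22), Idi1 10482762 (-2.78), Ifi202b (-2.31), Lpin1 (-2.26), Lss (-1.90), Mest (-1.42), Msmo1 (-2.41), Nsdhl (-2.95), Nt5e (-1.49), Per1 (-0.81), Pltp (-1.34), Rdh11 (-2.92), Sqle (-3.83), Srebf2 (-1.01) and Zfp385a (-1.27). Leaving out 1 array at a time ended 8 of these calls at least once, and 25 of 33 held in each of the 12 fits. Sqle was lost in 9 of the 12 fits (adjusted p up to 0.0778) and held without Atf7-/- natural mating replicate 1, Atf7-/- IVF replicate 2 or WT natural mating replicate 3. Per1 was lost in 8 (up to 0.0786) and held without Atf7-/- IVF replicate 1 or any WT natural mating array. Cyp7a1 was lost in 7 (up to 0.0726), namely without Atf7-/- natural mating replicates 1 or 2, Atf7-/- IVF replicates 1 or 3, WT natural mating replicate 2, or WT IVF replicates 1 or 3. Per2 was lost without Atf7-/- natural mating replicates 1 or 3, Atf7-/- IVF replicate 3, or WT IVF replicates 1 or 3 (0.0544 to 0.0619). Mest was lost without Atf7-/- natural mating replicate 3, Atf7-/- IVF replicates 2 or 3, or WT natural mating replicate 1 (0.0562 to 0.0625). Slc15a2 was lost without Atf7-/- natural mating replicates 1 or 2, Atf7-/- IVF replicate 3 or WT IVF replicate 3 (0.0502 to 0.053), Pltp without Atf7-/- IVF replicate 3 or WT IVF replicate 1 (0.0501 and 0.0516), and Atp5g2 without Atf7-/- natural mating replicate 3 (0.0537). Atp5g2 (chosen after its values were seen) was called through probe set 10447566 alone, while its probe sets 10433049 and 10560816 gave interactions of -0.08 and -0.07. The other Idi1 probe set, 10403413, gave -1.51 and was not called (adjusted p = 0.105).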

How the results depend on the processing

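After IVF the count of calls stayed small, from 0 to 2 probe sets higher and from 0 to 6 lower in all settings run. Atf7 and Ifi202b remained called wherever they were tested except in the fit of only the 6 IVF arrays, which called 0; the cause was not tested. 1 probe set was called lower when dim probe sets were left out (Ifi202b is then not tested) and 1 with 1 probe set per symbol (Atf7 probe set 10433032 is then not tested). Each filter to named probe sets, by 1 symbol or by 1 probe set per symbol, called 1 higher, the predicted gene G530011O06Rik (adjusted p = 0.0237 and 0.0284). With the replicate number as a block 1 probe set without a symbol was called higher (0.97) and 2 lower. The numbers do not pair the IVF samples by the labels, and deviations of same-numbered arrays correlated by 0.14, 0.04 and 0.24, with 5 of 6 arrays best correlated with their own number. The block ended the interactions of Cyp7a1 (adjusted p = 0.052) and Per1 (0.0513). With 1 array left out, 0 to 2 were called higher and 2 to 6 lower. The 6 came without Atf7-/- IVF replicate 2 and added Rrm2, Pbk, Scd1 and Cyp3a16. Without WT IVF replicate 2, 4 were lower and 1 higher, and without Atf7-/- IVF replicate 1, 2 were higher. The mean of a gene's probe sets called 1 ATF and CREB list member, Atf7, where the brightest probe set called 0.

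The alike count was 7321 (21.1%) with a bound of 0.3 and 14571 of the fewer probe sets tested when dim ones were left out, and 24067 to 25214 with 1 array left out. After natural mating the calls were 2527 higher and 2240 lower without a fold threshold, 386 and 524 at a log2 fold of 1, 782 lower at an adjusted p of 0.01, and 527 and 401 lower with 1 symbol and with 1 probe set per symbol. The interaction calls were 467 and 377 higher with those filters, 311 higher and 439 lower at an adjusted p of 0.01, and 504 and 482 at a log2 fold of 1. Left-out arrays gave 1095 to 1339 higher and 1003 to 1420 lower after natural mating, and 624 to 1141 and 819 to 1466 for the interaction. The fewest higher interactions came without Atf7-/- IVF replicate 3. Dim probe sets limit likeness, and 3 livers per group limit what can be called.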
